A study of Mus musculus with 2 samples.

Results

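The small nucleolar RNA (snoRNA) host genes are transcribed genes whose introns carry snoRNAs. The 9 listed were Gas5, Snhg1, Snhg3, Snhg4, Snhg5, Snhg6, Snhg8, Snhg12 and Snhg14, chosen by name and read by their annotated symbol. The annotation held 8 of the 9 among its 55536 genes, and no gene carried the symbol Snhg4. Total RNA had been sequenced from the left cerebral cortex of 2 male mice of the hybrid strain B6CASTF1/J, a cross of C57BL/6 with the CAST strain, at postnatal day 4. The mice had no treatment or allele named in the labels, each gave 1 library from 300 ng of RNA, and they form 1 group with no contrast. The labels number the males separately but list the same donor record for both, and nothing else in them separates litters or days. The libraries kept strand information after a reduction of ribosomal RNA, and they contained the synthetic ERCC spike-in RNAs, which go in at known amounts.

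SnoRNAs are short RNAs that guide the modification of ribosomal and spliceosomal RNA. C/D box snoRNAs direct the methylation of the ribose, and H/ACA box snoRNAs direct the conversion of uridine to pseudouridine. In mammals most are cut out of the introns of a host transcript after splicing, so that 1 host can make several snoRNAs while its joined exons remain as a separate RNA. The exons of many hosts code for no protein. Several such spliced RNAs are removed by nonsense-mediated decay, and several hosts belong to the genes with a 5′ terminal oligopyrimidine (TOP) start, a run of C and T that begins at a cytosine and is typical of ribosomal protein genes. Snhg14 is different in kind: it is a very long imprinted transcript of the Prader-Willi and Angelman region, read from the paternal chromosome in neurons, and it carries the brain snoRNA clusters and runs antisense into Ube3a.

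The snoRNAs inside the members show what these hosts carry, and 8 of them are printed because the results turn on them or because they stand for a family. All are from the GENCODE M21 transcripts on mm10, 5′ to 3′. Capitals mark a C box (TGATGA within the first 15 bases) with a D box (CTGA within the last 15), or the ACA that stands 3 bases before the 3′ end of an H/ACA RNA.
Snora73b, in Snhg3, 4:132352322-132352526 on the minus strand: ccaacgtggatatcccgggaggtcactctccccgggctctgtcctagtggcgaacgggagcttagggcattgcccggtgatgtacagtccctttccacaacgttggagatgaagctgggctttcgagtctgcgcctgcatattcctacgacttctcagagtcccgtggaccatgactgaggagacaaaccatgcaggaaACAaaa
Snora73a, in Snhg3, 4:132352775-132352979 on the minus strand: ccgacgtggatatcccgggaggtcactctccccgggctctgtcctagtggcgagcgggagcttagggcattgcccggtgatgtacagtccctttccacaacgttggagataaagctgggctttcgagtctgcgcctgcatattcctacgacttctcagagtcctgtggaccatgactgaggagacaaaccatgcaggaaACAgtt
Snord22, in Snhg1, 19:8725866-8725991 on the plus strand: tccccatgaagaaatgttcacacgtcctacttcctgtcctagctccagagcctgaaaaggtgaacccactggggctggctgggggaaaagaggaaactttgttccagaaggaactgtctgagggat
Snord80, in Gas5, 1:161037601-161037681 on the plus strand: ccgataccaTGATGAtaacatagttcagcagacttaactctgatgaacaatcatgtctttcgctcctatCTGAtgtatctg
Snord50a, in Snhg5, 9:88521529-88521600 on the minus strand: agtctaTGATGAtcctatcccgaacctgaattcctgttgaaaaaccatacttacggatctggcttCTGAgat
Snord50b, in Snhg5, 9:88521797-88521868 on the minus strand: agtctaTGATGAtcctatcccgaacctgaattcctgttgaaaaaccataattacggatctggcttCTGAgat
The 79-base sequence with most copies in Snhg14, such as Gm24866: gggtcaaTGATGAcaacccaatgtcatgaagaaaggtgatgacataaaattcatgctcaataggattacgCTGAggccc
The 94-base sequence with most copies in Snhg14, such as Gm22285: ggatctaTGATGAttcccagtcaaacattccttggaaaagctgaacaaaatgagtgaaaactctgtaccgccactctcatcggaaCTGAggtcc

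Near-copies recur in these sequences. Snora73a and Snora73b had 198 of 205 positions in common, and Snord50a and Snord50b had 71 of 72. The 79-base sequence was held by 33 genes inside Snhg14 and the 94-base sequence by 30. Snord22 holds the D box as spelled here but not the C box, so neither is in capitals. Both boxes of the C/D kind stood in 203 of the 237 annotated snoRNA genes that lie inside a member on its strand (85.7%), against 19.5% of all 1507 annotated snoRNA genes. The ACA stood in 7 of the 237 (2.95%), against 18.3% of all. These shares rest mostly on Snhg14, which holds 208 of the 237, and 189 of those 208 had the C and D boxes. A match of letters is not a test of function, and a different spelling of a box is not counted. The 237 are annotated records, and some overlap, such as those of Snord80 at 1:161037601-161037681 and 1:161037604-161037680. Each such record is counted.

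Levels are TPM, a unit that divides reads by transcript length and scales the result to the same total in every library. They are given for replicate 1 and replicate 2 and then as mean ± SD (n = 2). The libraries held 26897687 and 29511737 expected counts, the estimated reads of the deposited gene table. All 8 matched members were detected, meaning a TPM of 1 or more in both libraries, as were 15577 of all annotated genes. In bulk RNA such as this, fewer cells of a type and less RNA per cell cannot be told apart.

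Snhg14 stood far above the other members. It was at 531.72 and 462.77 TPM (497 ± 48.8), from 11803 and 11459 reads, and took 64.8% and 61.1% of the summed TPM of the 8 members. The record (ENSMUSG00000100826.6, 7:59307924-59975759, minus strand) spans 667836 bases and holds 15 transcripts. Its rank by level was 7 among 814 detected long noncoding genes, and it stood above 99.1% of all detected genes. Replicate 1 was the higher library. The level of Snhg14 is a sum over its annotated transcripts, several of which lie apart along the record. Snhg14-211, at the first base, had most reads of them in this table but only 35.11 and 29.81 TPM. Whether 1 long RNA is counted in several of these transcripts was not tested.

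Among the other hosts of C/D box snoRNAs, Gas5 stood highest, a host whose spliced RNA is known to rise when growth stops. Gas5 (ENSMUSG00000053332.13, 1:161034422-161038539, plus strand) stood at 117.55 and 109.40 TPM (113 ± 5.76), from 1568 and 1551 reads. Snhg5, host of the Snord50 pair (9:88521050-88522929, minus strand), stood at 44.42 and 52.27 TPM (48.3 ± 5.55), from 652.25 and 899.92 reads. Both libraries of Gas5 lay above both libraries of Snhg5.
Snhg6, host of Snord87 (1:9941959-9944118, minus strand), stood at 34.47 and 38.71 TPM (36.6 ± 3.00), from 252 and 313 reads. Snhg1, which carries 8 snoRNA genes (19:8723475-8726443, plus strand), stood at 25.25 and 29.04 TPM (27.1 ± 2.68), from 415.09 and 467.95 reads. Replicate 2 was the higher library for Snhg5, Snhg6 and Snhg1 and the lower one for Gas5.

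The 3 members whose nested genes are mostly of the H/ACA kind had the lowest mean levels, though Snhg12 overlapped Snhg1. Snhg12 (4:132308623-132311024, plus strand) stood at 26.68 and 24.84 TPM (25.8 ± 1.30), from 411.85 and 417.77 reads. Snhg8 (3:123507552-123508404, minus strand) stood at 21.16 and 19.45 TPM (20.3 ± 1.21), from 146 and 148.97 reads. Snhg3 (4:132348014-132353686, minus strand) stood at 19.73 and 20.69 TPM (20.2 ± 0.679), from 132.27 and 157.94 reads. The lowest library of these 3 genes was at 19.45 TPM and the highest at 26.68.

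The order by mean TPM was thus Snhg14, Gas5, Snhg5, Snhg6, Snhg1, Snhg12, Snhg8, Snhg3. Of the 7 pairs of neighbours in it, 5 did not overlap between the genes' libraries, and Snhg1 with Snhg12 and Snhg8 with Snhg3 did. The lowest, Snhg3, was above 59.4% of all detected genes, and its rank among the 814 detected long noncoding genes was 64. The median of those 814 genes was 2.855 TPM, that of the 13084 detected protein-coding genes 17.62, and that of all detected genes 14.355.

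**Figure D1:**
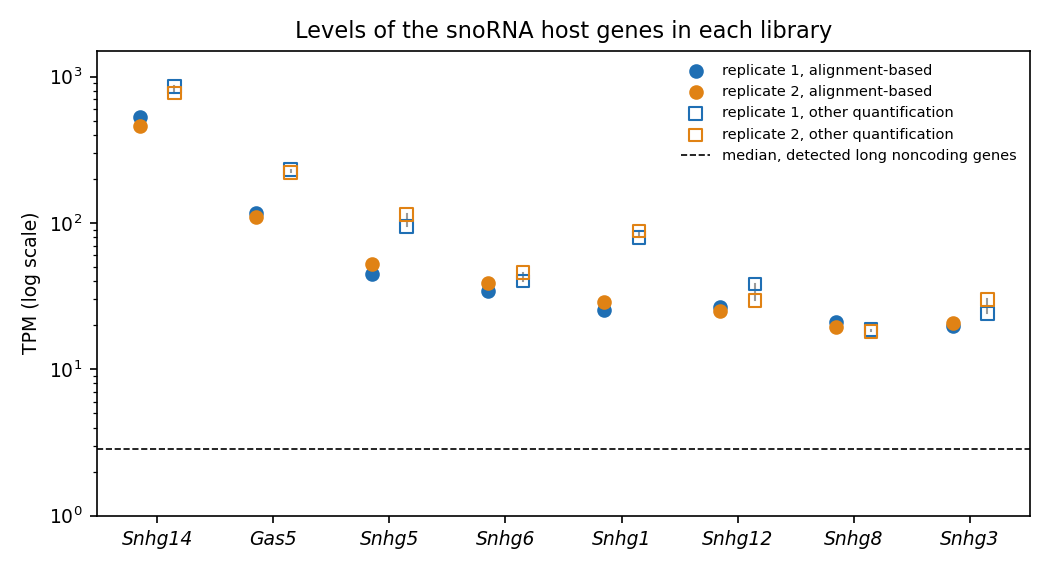
TPM of the 8 members on a log axis in each library, from the alignment-based gene table (filled circles) and from the other quantification summed over transcripts (open squares), with a dashed line at 2.855 TPM, the median of the detected long noncoding genes in the alignment-based table. Snhg14 is highest and Gas5 next in both quantifications, and the squares lie above the circles for every member but Snhg8.

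The size of a level depended on the quantification more than on the library. The series holds another transcript table per library, made from the reads with an index of the transcripts, called the other quantification here. In it Snhg14 stood at 857.844 and 769.037 TPM, Gas5 at 231.292 and 221.635, and the means of the others were 104.6 for Snhg5, 83.9 for Snhg1, 43.0 for Snhg6, 34.0 for Snhg12, 27.0 for Snhg3 and 18.4 for Snhg8. The order was then Snhg14, Gas5, Snhg5, Snhg1, Snhg6, Snhg12, Snhg3, Snhg8. In that order 6 of 7 neighbours did not overlap, and Snhg12 with Snhg3 did. TPM is a share of the library, and without the small structural, mitochondrial and spike-in RNAs, which are short or abundant, every level of the alignment-based table would be 1.68 and 1.71 times higher in the 2 libraries. The lengths that divide the reads also differed. For long records they fell short of the annotated length by a median of 99 bases in the alignment-based table, and by 347 and 342 in the other. Gas5 had 1.04 times the reads in the other table in both libraries, but 1.97 and 2.03 times the TPM. The part of these lengths in the levels was not tested. The reads themselves differed too. The other table gave Snhg14 20580.6 and 19845.8 estimated reads, 1.74 and 1.73 times the alignment-based counts. It gave fewer reads to Snhg8 (56 and 62.0) and to Snhg3 (82 and 109), whose levels in that table rest on these low counts.

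The 2 libraries can be set against each other gene by gene, which compares these libraries and not conditions. A two-sided exact binomial test on the scaled counts, with Benjamini-Hochberg adjustment over 20365 genes, passed at an adjusted p under 0.05 for 26.7% of all genes tested, 13.9% of them higher and 12.7% lower in replicate 2. It passed for 2 of the 8 members, Snhg5 and Snhg14. The test resolves smaller differences in genes with more reads, and every member had more than 100 counts in total. Of the 14511 genes with 100 or more counts, 5328 passed when tested as a set, and the same number of members, 2, passed there. Ratios below are log2 of replicate 2 over replicate 1 after TMM scaling, and their SE covers counting error only.

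Snhg5 was higher in replicate 2 by a log2 ratio of 0.36 ± 0.0742 (SE; adjusted p = 1.34e-05 in the exact binomial test). Snhg14 was lower, at -0.15 ± 0.0189 (adjusted p = 3.49e-13 in the same exact test), a small difference that its depth resolves. Both calls were also made in the other quantification, where 28.4% of all genes tested passed. Gas5 was at -0.12 ± 0.0517 (adjusted p = 0.0711, exact binomial test), and with spike-in scaling, which moves the median ratio of all genes to -0.15, it passed at -0.27 (adjusted p = 2.08e-06, exact binomial test). Snhg6 was at 0.21 ± 0.122, Snhg3 at 0.15 ± 0.1697, Snhg1 at 0.07 ± 0.0972, Snhg8 at -0.08 ± 0.168 and Snhg12 at -0.08 ± 0.1001, and none of them passed. The sign of Snhg1 turned with spike-in scaling and that of Snhg8 in the other quantification. The median over the 8 members was -0.0035, beside -0.0025 over all genes tested.

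**Figure D2:**
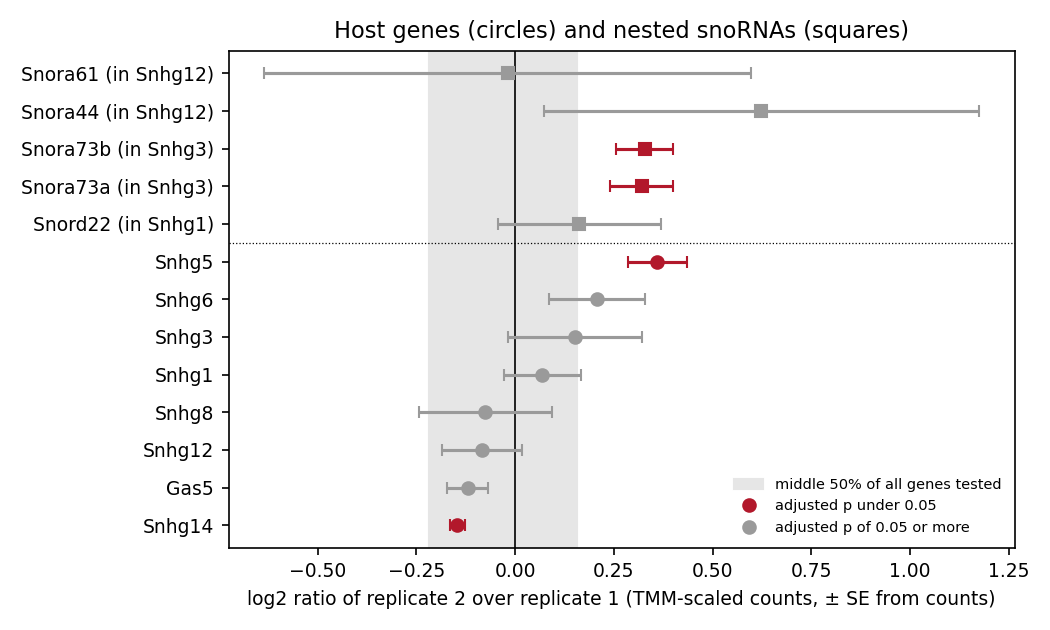
Log2 ratio of replicate 2 over replicate 1 for the 8 members (circles) and for the 5 nested snoRNAs with 10 or more reads (squares), with bars of ± SE from the counts, red where the adjusted p was under 0.05 and grey elsewhere. The grey band is the middle 50% of all genes tested, from -0.22 to 0.16, and Snhg5, Snora73a and Snora73b lie to its right beyond their SE.

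Other features of the libraries moved between the replicates as well, and their part in these ratios was not tested. All 8 markers of cortical excitatory neurons were detected, with summed TPM of 774 and 710. Replicate 2 held more RNA of striatum markers (summed TPM 89.0 and 143, 7 of 7 genes higher) and of olfactory bulb markers (8.17 and 39.5, 4 of 4 matched genes higher). It also held more of red blood cell markers (215 and 456, 5 of 5 higher). Choroid plexus markers summed to 2.05 and 34.6 TPM (2 of 4 tested genes higher), of which Ttr alone held 1.03 and 32.43. Only 1 of the 5 choroid plexus markers, Ttr, was detected, so that sum rests on 1 gene. Genes of the class TEC, unspliced models to be experimentally checked, were lower in replicate 2 for 456 and higher for 9 of 1705 tested.

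The transcripts behind each level were read as the share of a gene's TPM. The annotation lists 87 transcripts for the 8 members, of which 38 are classed as retaining an intron, that is, as incompletely spliced. In the alignment-based table all 8 members had the same leading transcript in both libraries. Only Snhg3 and Snhg8 had the same leading transcript in both quantifications, so the identity of a leading transcript is uncertain for the other 6.

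Gas5 was led by Gas5-210, a spliced transcript with 26.32% and 35.75% of the gene's TPM, followed by Gas5-224 with 16.01% and 16.47%. The other quantification gave Gas5-210 31.6% and 28.5% and put Gas5-203 at 28.6% and 32.1%, a transcript with 0 and 0.72% in the alignment-based table. Snhg1-211 held 49.15% and 47.69% of Snhg1 in the alignment-based table but 4.69% and 7.66% in the other, which gave 59.1% and 51.9% to Snhg1-213. Next in the alignment-based table was Snhg1-215, an intron-retaining form, with 14.65% and 9.31%. For Snhg1, then, the tables disagree on which transcript was read. The other table gave Snhg1-213 111 and 120 estimated reads, against 1.84 and 0 in the alignment-based one. The snoRNA gene Snord22 lies within the extent of Snhg1-213 and had 88.91 and 107.05 reads in the alignment-based table but 0 in the other. Whether reads of that stretch were placed on Snhg1-213 was not tested.
Snhg6-203 held 58.31% and 62.82% of Snhg6 and Snhg6-205 16% and 14.99%, and the other quantification reversed that order, with 65.5% and 69.3% for Snhg6-205. Snhg8-201 held 73.73% and 82.13% of Snhg8, against 64.1% and 62.5% in the other table. Both tables thus put Snhg8-201 first. Snhg3-202 held 38.78% and 40.23% of Snhg3 and Snhg3-201 33.89% and 24.01%, against 100% and 91.0% for Snhg3-202 in the other table. Snhg5-201 held 35.21% and 58.19% of Snhg5 and Snhg5-204, an intron-retaining form, 25.14% and 22.31%. Snhg12 was spread over several transcripts, with 27.9% and 34.91% for Snhg12-206 and 23.86% and 17.32% for Snhg12-210. Snhg8 was the member with most of its level in 1 transcript in the alignment-based table.

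A total of 4 members have annotated intron-retaining transcripts, and in 3 of them these held about as much TPM as the spliced ones. Their share was 57.66% and 47.07% for Gas5 (20 of 25 transcripts), 50.85% and 50.41% for Snhg1 (14 of 18), 54.93% and 40.07% for Snhg5 (3 of 6) and 14.20% and 13.82% for Snhg8 (1 of 3). The median was 13.7% over the 7711 detected genes that have such a transcript, and 34.5% over the 86 long noncoding genes among them. The shares of Gas5, Snhg1 and Snhg5 were above both medians and that of Snhg8 was close to the median of all genes. In these 4 members every nested snoRNA gene lies wholly inside an exon of at least 1 host transcript. Reads of a snoRNA or its precursor may therefore count toward these shares, and how many did was not tested. In the other quantification the shares were 39.9% and 35.0% for Gas5, 82.5% and 77.5% for Snhg1, 69.1% and 34.1% for Snhg5 and 23.5% and 25.3% for Snhg8.

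**Figure D3:**
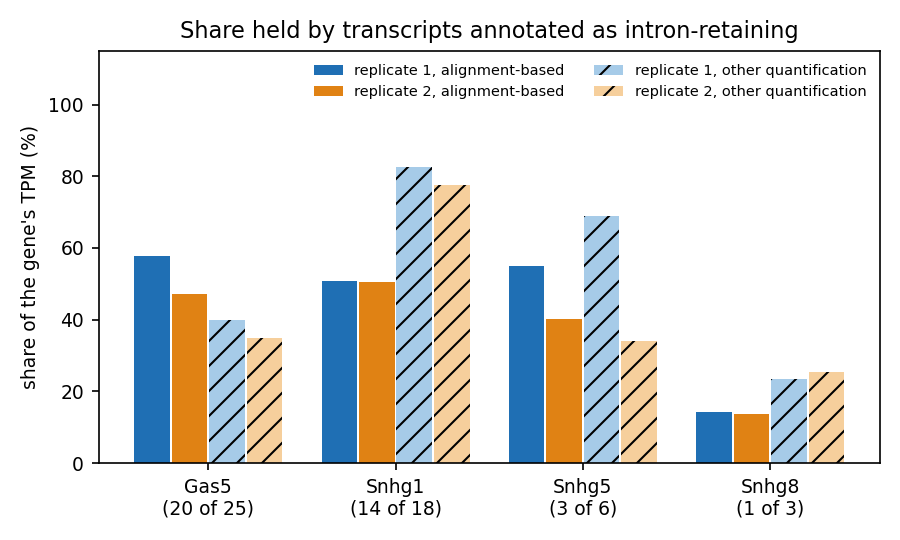
Share of each gene's TPM held by transcripts annotated as retaining an intron, in percent, for the 4 members that have any (their number of all transcripts in brackets), in each library and each quantification. Snhg8 has the lowest share in all 4 sets of bars, Snhg1 differs between quantifications, and that of Snhg5 is lower in replicate 2 in both.

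In the alignment-based table the difference of Snhg5 between the libraries lay in Snhg5-201, a spliced transcript. Snhg5-201 had 241.02 reads in replicate 1 and 530.3 in replicate 2, while the 3 intron-retaining transcripts together had 376.78 and 357.68. The other quantification gave Snhg5-201 123 and 366 estimated reads. In Gas5 the intron-retaining transcripts had 1197.63 and 1057.52 reads and Gas5-210 had 241.23 and 345.1, but the other quantification gave Gas5-210 226 and 218. Of these 2 genes, Snhg5 was the one for which both tables placed more reads of the form leading the alignment-based table in replicate 2. With 1 library each, these transcript values have no test, and Snhg5 was looked at in this way after its ratio was seen. Over all genes, intron-retaining transcripts took 4.51% of the reads in replicate 1 and 4.12% in replicate 2.

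Reads on the snoRNAs themselves depended first on their length. The alignment-based table gives a gene an effective length, the number of positions where a read fragment can start, which was the annotated length less 99 bases. A gene of 99 bases or less then has an effective length of 0, and all 458 such snoRNA genes were listed at 0 reads. This holds for 229 of the 237 nested genes, among them all 10 in Gas5, both in Snhg5, Snord87 in Snhg6 and all 208 in Snhg14. Their 0 is set by the table and carries no limit on the snoRNA's level. The other quantification listed all 1507 snoRNA genes at 0.

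Of the 8 nested genes above that length, 7 had reads, and the Snora73 pair in Snhg3 held most of them. These are H/ACA RNAs known for a part in the early processing of ribosomal RNA. Snora73b had 691.05 and 932.75 reads (382.9 and 456.81 TPM) and Snora73a 567.68 and 762.31 (314.54 and 373.34 TPM), against 132.27 and 157.94 for Snhg3 (19.73 and 20.69 TPM). The TPM of each snoRNA divides by an effective length of 106 bases, that of Snhg3 by 394 and 396. By reads, Snora73b had rank 3 and Snora73a rank 8 among all annotated snoRNA genes. Both were higher in replicate 2, with log2 ratios of 0.33 ± 0.0724 (adjusted p = 5.79e-05) and 0.32 ± 0.0799 (adjusted p = 5.06e-04) in the exact binomial test, while their host did not pass at 0.15. Whether the snoRNAs and the host differ in ratio was not tested.

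The values of the pair are uncertain one by one. Their sequences printed above are nearly alike, so that reads may be shared between them, and 159 of the 205 bases of Snora73a also lie in an exon of Snhg3-202. Of the different 31-base words of Snhg3, 21.1% also occur in other genes, most often in Snora73a. Snora73b shares no exon base with Snhg3 but lies within the record of Rcc1, which overlaps Snhg3 on the same strand by 5592 bases. On the other strand, Gm17300 covers all 205 bases of Snora73b and 175 of Snora73a and had 0 reads in both libraries, so the table placed no read of this stretch on the other strand.

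The other nested genes had few reads. Snord22, a long C/D box RNA in Snhg1, had 88.91 and 107.05 reads (193.41 and 205.83 TPM, log2 ratio 0.16 ± 0.206). Its TPM divides by an effective length of only 27 bases. The annotated snoRNAs of Snhg12 had 10.51 and 17.73 reads for Snora44, 10.17 and 10.82 for Snora61 and 1.48 and 0.68 for Snora16a. Another record of the name Snora16a, at nearly the same bases, had 0 reads in both libraries. Snora24 in Snhg8 had 0 and 1.03 reads, where a count of 0 allows up to 3 reads or 0.112 CPM, a count scaled to library size. Snord22, Snora44 and Snora61 did not pass the exact binomial test, and Snora16a and Snora24, with under 10 reads in total, were not tested. All nested genes together took 9.89% and 11.7% of the reads on annotated snoRNA genes.

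**Figure D4:**
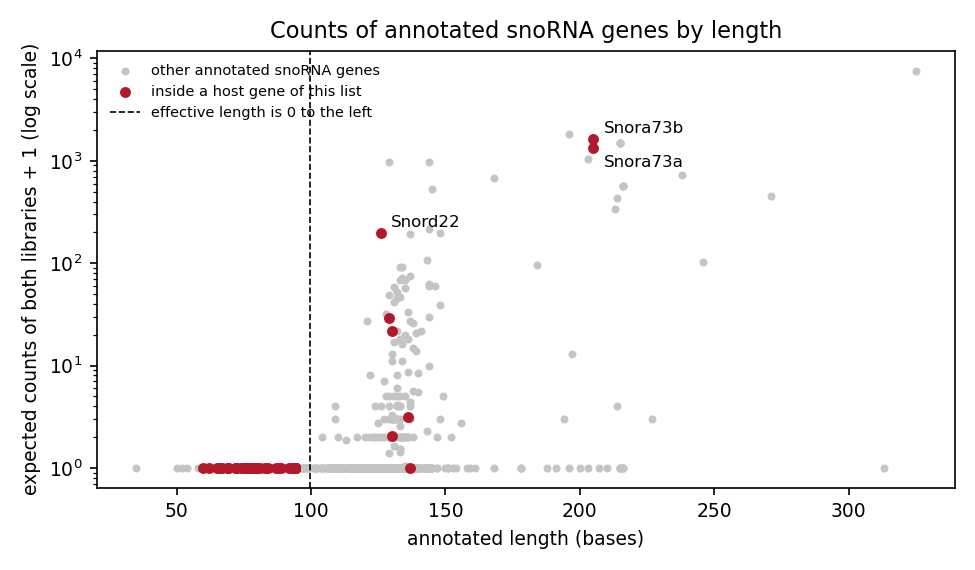
Expected counts of both libraries plus 1 (log axis) against annotated length in bases for all 1507 annotated snoRNA genes, with the 237 genes nested in a member in red and a dashed line between 99 and 100 bases. Every gene to the left of the line is at 0 reads, and Snora73b, Snora73a and Snord22 are the nested genes with most reads.

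Within Snhg14 the signal was spread over the whole record. The 208 nested snoRNA genes are 69 to 94 bases long, 130 of them 79 bases and 68 of them 94, and they hold 85 different sequences, of which 61 occur once. The annotation names 17 of the 94-base genes Snord116, the cluster tied to Prader-Willi syndrome. Along the record, counted in the direction of transcription, Snhg14-211 starts at the first base and ends at 38.4 kb with 4042.46 and 3883.11 reads. Snhg14-203, at 280 to 299 kb, had 2093.06 and 2143.55 reads and the largest share of the gene's TPM (40.49% and 42.11%). Snhg14-208, at 523 to 530 kb, followed with 19.64% and 18.69%, from 1045.51 and 979.69 reads. Reads were thus found on transcripts at the start, middle and end of the record.

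The shares within Snhg14 are uncertain, and its exons repeat in part. Of the 31-base words of Snhg14-203, 41.4% occur more than once in it and 82.3% in other transcripts, and for Snhg14-208 the values are 45.0% and 37.6%. The other quantification gave Snhg14-208 only 0.615% and 0.758% and placed Snhg14-206 first with 29.5% and 29.0%, against 4.51% and 4.9% in the alignment-based table. Snhg14-211 (19.4% of words in other transcripts) stood at 6.6% and 6.44% in one table and 6.03% and 5.95% in the other. The tables also gave close shares for Snhg14-202 (3.49% and 3.71% against 4.39% and 3.94%), with 81.0% of its words in other transcripts, while Snhg14-206, with 34.3%, differed. The part of the repeats in these differences was not tested.

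Summed over transcripts, the far end of Snhg14 was lower in replicate 2 than the near end, but not every transcript followed this. A total of 11 of its transcripts had 100 or more reads in both libraries together, and 11 of 11 were lower in replicate 2 with TMM scaling, against 9 of the 11 in the other quantification. Snhg14-206 was only at -0.0057 ± 0.0638, and with DESeq2 size factors, a setting added after seeing the data, it stood at 0.0122 and 10 of 11 were lower. The 7 that lie within 400 kb of the first base had 8675.72 and 8647.98 reads, a log2 ratio of -0.11 ± 0.0219 (SE from counts). The 4 that start at 500 kb or more had 3105 and 2790 reads, a ratio of -0.26 ± 0.0376. In the other quantification the same transcripts gave -0.09 ± 0.0160 and -0.17 ± 0.0326. The far end less the near end was -0.15 ± 0.0436 in the alignment-based table and -0.08 ± 0.0363 in the other. The lowest were Snhg14-213 at -0.46 ± 0.104 and Snhg14-212 at -0.42 ± 0.215, the last 2 along the record, and they were also lower in the other table, at -0.46 and -0.27. The far transcript Snhg14-208 was at -0.20 ± 0.0641 in the alignment-based table but at 0.23 ± 0.380 in the other, and the near transcript Snhg14-214, at -0.26 ± 0.166, was lower than Snhg14-208 and Snhg14-210 (-0.24 ± 0.0536). The bounds were set after the values were seen, the groups of transcripts were not tested, and each rests on 1 library per replicate.

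**Figure D5:**
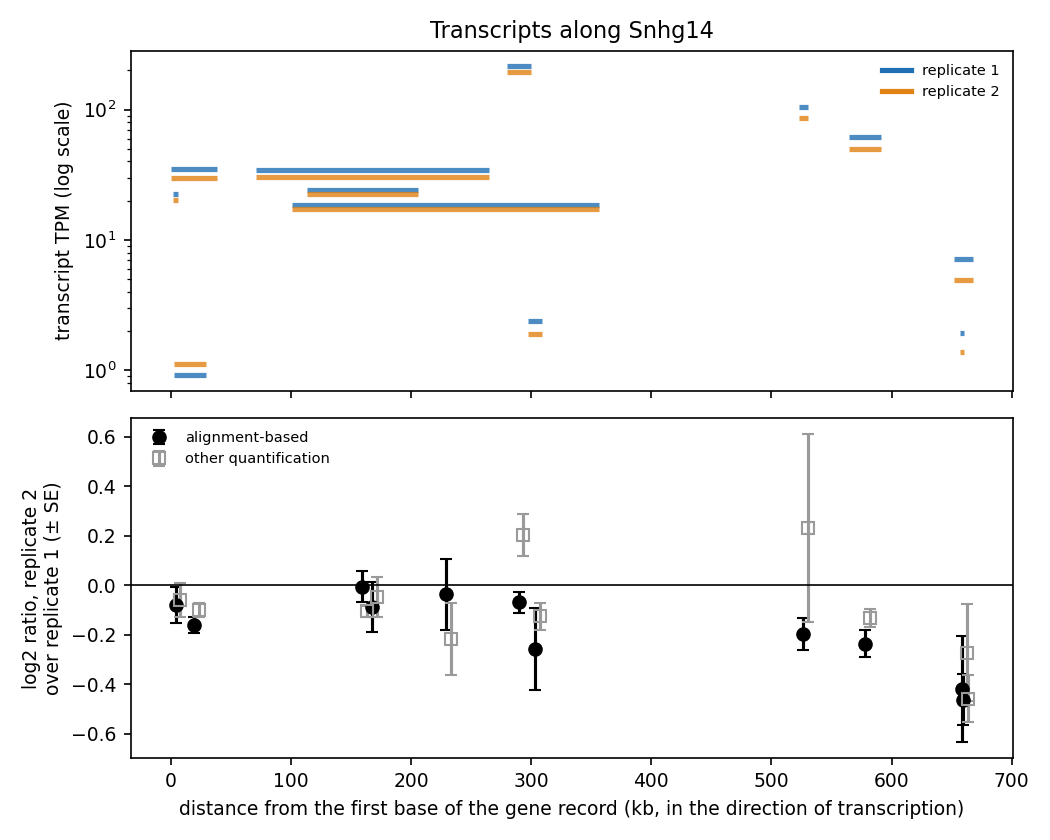
Top, TPM (log axis) of each Snhg14 transcript with reads in each library, drawn over its extent along the record in kb from the first base. Bottom, log2 ratio of replicate 2 over replicate 1 with ± SE from counts at the midpoint of the 11 transcripts with 100 or more reads, where the alignment-based points at 500 kb or more run from -0.20 to -0.46.

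Genes that overlap Snhg14 gave ratios of both signs, and those that passed were lower in replicate 2. Snhg14-213 lies antisense to Ube3a, the ubiquitin ligase lost in Angelman syndrome, and the gene records overlap by 3613 bases. Ube3a stood at 70.04 and 62.89 TPM, with a log2 ratio of -0.15 (adjusted p = 2.36e-07, exact binomial test). The TEC gene A230103L15Rik, which lies inside Snhg14 on its strand near that end, had 298 and 222 reads, at -0.53 (adjusted p = 3.12e-04, exact binomial test). Another such gene, Gm44831 in the middle of the record, had 120 and 85 reads, at -0.60 (adjusted p = 0.0159, exact binomial test). Gm44829, a TEC gene on the other strand near the far end, had 67 and 82 reads (0.19), and Gm38393, a protein-coding record that overlaps the first bases of Snhg14, stood at 44.81 and 44.08 TPM (0.02), and neither passed. TEC genes had a median of -0.50 over the library, and the 548 tested protein-coding genes that span 300 kb or more had a median of 0.01. Upstream, Snrpn, a spliceosome protein gene of the same imprinted region, stood at 242.03 and 246.26 TPM and Snurf, read from the same transcript, at 533.08 and 579.06. In the alignment-based table both were higher in replicate 2, at 0.10 (adjusted p = 2.23e-04) and 0.19 (adjusted p = 0.00699) in the exact binomial test. The other quantification gave Snrpn 325 and 340 TPM but Snurf 0 in both libraries, so the level and ratio of Snurf rest on 1 table. Of the 9 listed genes of the region 8 matched and 7 were detected, with 4 higher and 2 lower in replicate 2, and the lowest detected was the flippase gene Atp10a at 1.85 and 1.12 TPM.

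The first bases of the transcripts were read for a TOP-type start, here a C at the first base that opens a run of 5 or more C or T. In the leading GENCODE transcript this held for 3 of the 8 members, Snhg6, Snhg8 and Snhg14, against 2.11% of 15565 detected genes and 11.7% of 77 cytoplasmic ribosomal protein genes. The start of Snhg14-203 lies far inside the gene. RefSeq starts, from the GRCm38.p6 promoter windows, were held for 7 members, and Gas5 and Snhg8 had such a start, against 3.03% of 10551 detected genes and 22.8% of 57 ribosomal protein genes. Annotated first bases can be off by some bases. A C-led run of 5 or more that begins within 10 bases of the RefSeq start was found in 5 of 7 members, but also in 37.1% of detected genes and 61.4% of ribosomal protein genes.

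The windows of these 5 members are printed from 20 bases before the RefSeq start to 29 after it, with the run in capitals, and the first 30 bases of Snhg6-203 are added, since the window table held no entry for Snhg6.
Gas5, 1:161035146-161035195, plus strand: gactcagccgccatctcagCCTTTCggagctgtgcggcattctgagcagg
Snhg8, 3:123508307-123508356, minus strand: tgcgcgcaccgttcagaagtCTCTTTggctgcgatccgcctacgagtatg
Snhg12, 4:132308658-132308707, plus strand: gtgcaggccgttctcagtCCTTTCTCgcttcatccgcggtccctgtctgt
Snhg3, 4:132353657-132353706, minus strand: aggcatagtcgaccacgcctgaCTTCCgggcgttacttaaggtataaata
Snhg5, 9:88522868-88522917, minus strand: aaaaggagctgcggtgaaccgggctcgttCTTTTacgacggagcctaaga
Snhg6-203, 1:9944089-9944118, minus strand: CTTTCTCggcagcgccgtagagcgcgagca
The runs are 5 to 8 bases long. Gas5 has another RefSeq start upstream with no such run, and the windows of Snhg1 and Snhg14 hold none. The RefSeq start of Snhg14 lies 475 kb upstream of its GENCODE record, so the 2 annotations describe different extents.

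The protein genes that work with snoRNAs were all detected, in lists chosen by known role. All 4 core proteins of C/D particles were detected, with a median of 58.8 TPM. Nop56 (93.36 and 103.17 TPM) and Nop58 (55.77 and 52.64), the paired scaffold proteins, were higher in replicate 2 by scaled counts, at 0.20 and 0.19 (adjusted p = 1.59e-05 and 5.14e-04, exact binomial test). Fibrillarin, the methyltransferase encoded by Fbl (60.33 and 54.52), and Snu13 (65.11 and 55.34) did not pass. All 4 core proteins of H/ACA particles were detected, with a median of 28.4 TPM, and none passed the test. Dkc1, the pseudouridine synthase, stood at 16.4 and 18.13 TPM and Nop10 at 39.78 and 38.19, with Nhp2 at 30.09 and 29.26 and Gar1 at 24.86 and 29.26. The C/D core genes thus had a higher median than the H/ACA core genes.

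All 12 particle assembly factors were detected, with a median of 13.2 TPM, from Pih1d1 (50 and 41.59) down to Shq1 (3.89 and 3.39), and 1 was higher and 2 lower in replicate 2. All 10 factors of nonsense-mediated decay were detected, with a median of 19.1 TPM, with 2 higher and 2 lower, and Upf2 was lowest (9.79 and 7.64). The median of the 14 known TOP genes outside the ribosomal protein families was 240 TPM, from Eef1a1 (2671.82 and 2727.1) to Eif3f (86.3 and 84.04), with 6 higher and none lower. Each count stands beside the 13.9% higher and 12.7% lower among all genes. That share depends on depth: of 14511 genes with 100 or more counts in total, 5328 passed, 2863 of them higher. The TOP genes had far more counts than that bound, so neither share matches their depth. Snhg14 and Gas5 were the members within the range of the TOP list.

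The other host genes had a lower median than the members. Of 15 listed, 13 matched and 12 were detected, with a median of 12.1 TPM over those matched, beside 31.9 for the 8 members. Rian, the imprinted host of another brain snoRNA cluster, was highest at 856.21 and 763.49 TPM, followed by Snhg11 (137.36 and 139.39), Zfas1 (42.34 and 42.22), Snhg20 (18.57 and 20.13), Epb41l4aos (16.58 and 14.4) and Snhg17 (15.74 and 14.59). Cwf19l1 (10.87 and 13.32 TPM), Snhg15 (8.54 and 9.98), Dancr (9.08 and 7.9), Snhg10 (6.7 and 6.46), Snhg9 (2.8 and 3.71) and Mir17hg (2.31 and 1.48) were lower, and Snhg18 (0.93 and 0.75) was below the detection bound. Mir17hg is by its name a microRNA host gene, and it is counted in this list and its median. Snhg11 was higher in replicate 2 at 0.13 (adjusted p = 1.95e-11), and Rian at -0.08 (adjusted p = 8.02e-07), Dancr at -0.61 (adjusted p = 0.00449) and Mir17hg at -0.56 (adjusted p = 0.0153) were lower, in the exact binomial test. Rian and Snhg14 were thus the highest hosts of either list, and both were slightly lower in replicate 2.

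Genes next to the members had levels of their own. Slc3a2, an amino acid transporter subunit read in the opposite direction 105 bases from Snhg1, stood at 83.06 and 84.39 TPM, 3.08 times the level of Snhg1 by mean TPM, and was higher in replicate 2 at 0.13 (adjusted p = 0.00978, exact binomial test). Zbtb37, which overlaps the start of Gas5 on the other strand by 428 bases, stood at 23.22 and 20.33 TPM, 0.192 times the level of Gas5, and was lower in replicate 2 at -0.27 (adjusted p = 2.27e-11, exact binomial test). These 2 neighbours thus stood on either side of their host in level. Rcc1, the exchange factor of the GTPase Ran that overlaps Snhg3, stood at 10.98 and 7.81 TPM, 0.465 times Snhg3. Rcc1 was lower in replicate 2 at -0.33 (adjusted p = 0.0254, exact binomial test), the opposite sign to Snhg3, and reads of the pair on their common strand may be split. Tcf24, 16044 bases from Snhg6, had 4 and 10 reads and lay at 0.07 and 0.2 TPM, so this neighbour of Snhg6 was not detected. Mcmdc2, which overlaps Snhg6 on the other strand by 127 bases, had 37 and 46 reads. Syncrip (76.57 and 68.72), Trnau1ap (23.61 and 17.83) and Prss12 (14.17 and 14.54) stood at 1.503, 0.804 and 0.707 times the mean TPM of Snhg5, Snhg12 and Snhg8, their neighbours. Of these 3, Trnau1ap passed, at -0.29 (adjusted p = 0.0319, exact binomial test).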

How the data were processed

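The authors deposited, per library, a gene table and a transcript table with expected counts and TPM, the transcript table also giving the percent of its gene held by a transcript, and a second transcript table with estimated counts and TPM. Assembly mm10 and annotation GENCODE M21 are named in the deposited notes; the aligner, quantifiers, their versions and the use of strand in counting are, in the sources used here, not given. The first pair is called alignment-based. Alleles of the hybrid were not told apart.

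Symbols came from the transcript names, joined by gene identifier. Spike-in rows (97) and unnamed numeric rows (26248) held 0.323% and 0.351% of counts and stayed out of tests. Detected means a TPM of 1 or more in both libraries. Ratios used TMM factors (edgeR 4.0.16, R 4.3.3) and a prior count of 0.5. The two-sided exact binomial test ran on rounded expected counts of genes with 10 or more in total, with Benjamini-Hochberg adjustment and a threshold of 0.05. On simulated data with sampling noise only, it recovered 64.2% of 67 genes changed 1.25-fold, 92.5% of 67 changed 1.5-fold and 98.5% of 66 changed 2-fold, and called 5 of 20203 unchanged genes, for these 2 libraries and 20403 genes tested. The simulation held no variation between animals, so its rates do not carry over to the real counts. A chi-square of 176985 on 20364 degrees of freedom showed that the libraries differ by more than sampling noise. An exact test across 2 animals cannot pass 0.05, so levels carry no p. Alternatives were DESeq2 1.42.0 size factors, total and spike-in scaling, count filters, posterior mean TPM, rescaled TPM and the other quantification. A 0 allows 3 counts (0.112 and 0.102 CPM); limits cover counting error only.

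Nested snoRNAs lie wholly inside a member's record on its strand. The genes named are the members, nested snoRNAs with 10 or more counts, the leading 2 transcripts, all genes of the other-host, core and neighbour lists, the highest and lowest detected gene of other lists, and overlapping genes; 1 gene that the rule takes is not reported here. Others (Snora16a, Snora24, Snord80, the Snord50 pair, further transcripts, Snrpn, Snurf, Ttr) were chosen after their values were seen. Members and lists were chosen with earlier results of these data known.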

Additional observations from a re-analysis of the deposited data

How the results depend on the processing

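Of the alternative values for the main results, 29 stayed within their bounds and 5 moved. The median TPM of the members (32.2 ± 2.33) was 63.4 in the other quantification and 54.8 without small structural, mitochondrial and spike-in RNA, and 33.9 and 30.6 when replicate 1 or replicate 2 was left out. The median share of the leading transcript (42.3% ± 3.72) was 18.3% in the other quantification, and 44.9% and 39.6% without replicate 1 or 2. The summed reads on nested snoRNAs (1601 ± 327) were 0 in the other quantification. A TOP-type start was found in 3 of 8 members at the leading GENCODE start, in 2 of 7 at the RefSeq start and in 5 of 7 within 10 bases of it, so the last differs in annotation, window and members held. In these cases the cause was not tested. The log2 ratio of Snhg1 (0.07) was -0.0793 with spike-in scaling, and that of Snhg8 (-0.08) was 0.0892 in the other quantification; neither passed the exact binomial test in either setting. Gas5 (-0.12) passed at -0.15 with total counts and at -0.27 with spike-in counts. Of all calls, 52.3% were higher in replicate 2, against 58.2% with DESeq2 size factors, 41.9% with total counts and 10.5% with spike-in counts, which move the median ratio of all genes to -0.15. No paired analysis was possible because the series holds 1 group. A ratio of the libraries, and the overlap of neighbours in the order, cannot be had with 1 library left out and were not run. Depth limits Snhg8 and Snhg3, whose levels rest on 132 to 158 reads a library (56 to 109 in the other quantification), and the nested snoRNAs of Snhg12 and Snhg8.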

Other observations

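Snhg4, listed but absent by symbol, has a RefSeq record on chromosome 18 that ends at the same base as the GENCODE gene AC121821.1 (ENSMUSG00000117869.1, 18:35553371-35558316) and starts 39 bases inside it. This gene was looked up after the values were seen and is not counted among the members. It had 394.98 and 363.2 expected counts, or 23.97 and 19.54 TPM (21.8 ± 3.13), within the range of Snhg1 to Snhg3. In the other quantification it had 1354.63 and 1530.38 estimated counts, or 216 and 229 TPM. Snora74a, an H/ACA snoRNA of 196 bases inside it, had 803.55 and 1021.64 reads, at a log2 ratio of 0.24 ± 0.0680 (adjusted p = 0.00245, exact binomial test). As in Snhg3, the nested H/ACA RNA had more reads than its host in the alignment-based table and none in the other. Whether the other quantification placed reads of Snora74a on AC121821.1 was not tested. The overlapping gene Gm28285 had 64.48 and 62.21 expected counts, but 38.7 and 369 estimated counts in the other quantification, and the reason was not tested. The neighbouring gene Matr3, which encodes a nuclear matrix protein, stood at 362.82 and 384.92 TPM, at a log2 ratio of 0.10 (adjusted p = 1.08e-07, exact binomial test).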
